A study of Mus musculus with 6 samples.

Results

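The genes described here encode the enzymes and transporters that carry glucose carbon through glycolysis, the pentose phosphate pathway and glycogen in 3T3-L1 adipocytes. They were chosen by name, as a list of 37 gene symbols by function out of 24421 symbols in the count tables, with earlier results of these data known. Of the 37 genes, 21 belong to glycolysis and lactate handling, 7 to the pentose phosphate pathway and 9 to glycogen. All 37 were present in the tables, and 36 had enough reads to be tested along with 12766 genes in all. The exception was *Eno1*, which held between 0 and 2 counts per library.

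Glycolysis splits glucose into pyruvate in the cytosol, and in adipocytes it supplies both the glycerol backbone of triglycerides and the pyruvate from which fatty acids are made. The pentose phosphate pathway branches off at glucose 6-phosphate. Its oxidative part yields NADPH, which fat cells spend on fatty acid synthesis, and its non-oxidative part interconverts pentoses with glycolytic sugars. Glycogen is a small glucose store in adipocytes, and it is built by glycogen synthase and taken down by glycogen phosphorylase.

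3T3-L1 is a mouse fibroblast line that turns into fat-storing adipocytes under a hormone cocktail, here 10% serum with 870 nM insulin and 5 µM of a thiazolidinedione (TZD), plus 500 µM IBMX and 1 µM dexamethasone (Dex) until day 3. On day 7 the cells received 100 pfu per cell of an adenovirus that carries either the bacterial LacZ gene as control (AdLacZ) or mouse *Lmo3* (Ad*Lmo3*), a LIM-domain cofactor of transcription. RNA was taken 72 h later from 3 separate infections per virus and sequenced as 75-base single reads, which gave 3 libraries per group. The strain was labelled C57BL/6 in all 6 samples, and each group is the same cell line, so the 3 libraries of a group are replicate infections of cultured cells and not animals. The question was which of the glucose-handling genes differ between the viruses, and whether glycolysis, the pentose phosphate pathway and glycogen behave alike.

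The 6 libraries held 28035639 to 38332335 counts on genes. Levels are given as CPM, the counts of a gene per 1000000 counts of its library after TMM scaling. The *Lmo3* symbol had 0 counts in every library, and the viral insert was codon-optimized, so the tables give no check of which library received which virus. Of 12 adipocyte markers, 10 rose in Ad*Lmo3* (edgeR adjusted p from 0.0024 for *Retn* to 0.0316 for *Pparg*), while *Lpl* and *Slc2a4* did not pass. By the same test 2.71% of all tested genes were higher and 1.57% were lower. The summed level of the 12 adipocyte markers was 21571 to 23737 CPM in AdLacZ and 29401 to 35406 CPM in Ad*Lmo3*. None of 12 preadipocyte and fibroblast markers passed, with sums of 24685 to 31540 and 23879 to 36257 CPM. In both lists 0 of the 12 markers were at 0, and 6 macrophage markers summed to 3.18 to 5.86 CPM. In such bulk RNA, a change in the number of cells of a type and a change in RNA per cell cannot be told apart. The part of the adipocyte markers' rise in the results below was not tested.

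Of the 36 tested genes, 4 were higher in Ad*Lmo3* than in AdLacZ at an adjusted p under 0.05 and 0 were lower. Over all tested genes, 2.71% were higher and 1.57% were lower by the same rule. The 4 genes were *Pygb*, *Taldo1*, *Rpia* and *Pfkfb3*: a glycogen phosphorylase, a pair of enzymes of the non-oxidative pentose phosphate pathway, and the enzyme that makes the activator of phosphofructokinase. The test was edgeR's quasi-likelihood test with Benjamini-Hochberg adjustment over all 12766 genes, and every adjusted p of the group comparison comes from it unless another tool is named. Genes of at least 100 CPM, where most of these enzymes lie, were called more often: 8.59% of 2341 such genes passed in either direction. The groups did not overlap, with every Ad*Lmo3* library above every AdLacZ library, for 7 of the 36 genes, against 13.3% of all tested genes. The opposite order was found for 1 gene, *Gyg*, against 13.2% of all tested genes. Among the 2341 genes of at least 100 CPM these separations were also more frequent, with 436 genes upward and 423 downward. The median log2 fold change of the 36 genes was 0.13, beside 0.00 for all tested genes.

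**Figure D1:**
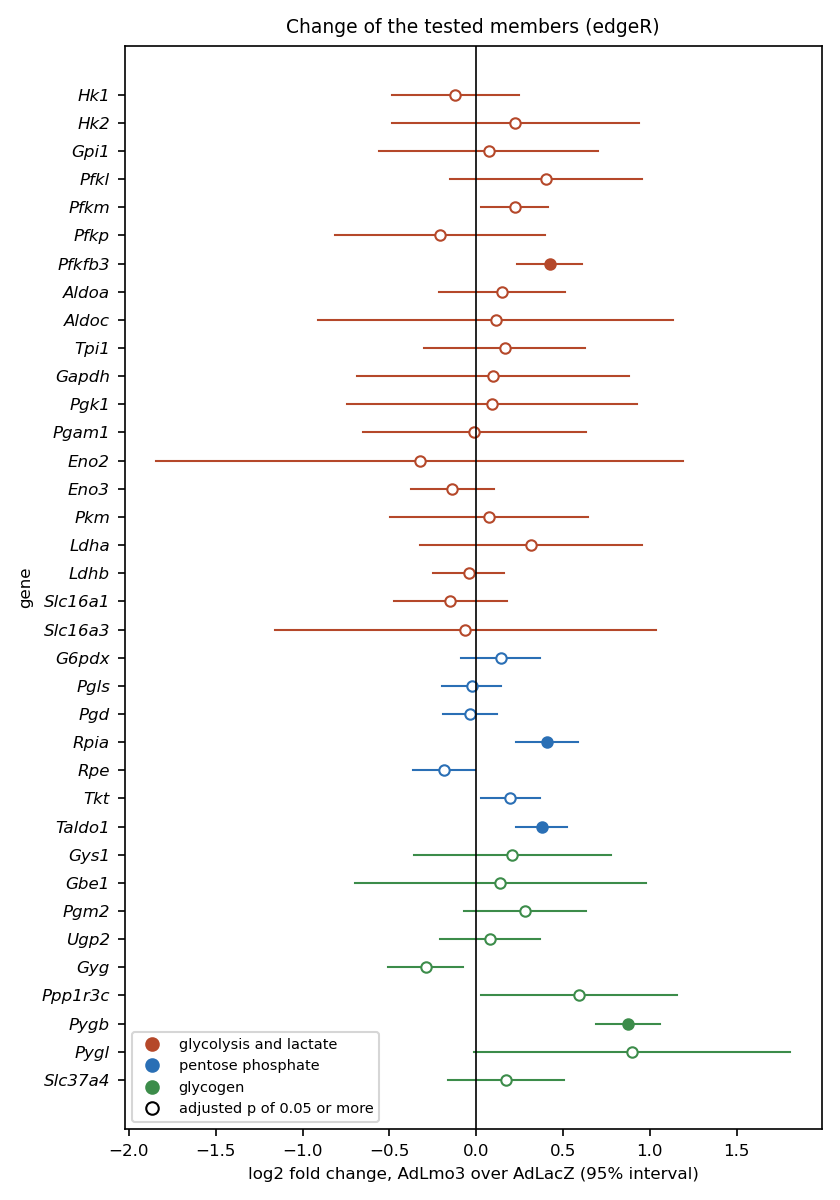
Log2 fold change (Ad*Lmo3* over AdLacZ, edgeR) of the 36 tested genes with its 95% interval, coloured by pathway, filled where the adjusted p was under 0.05. Only *Pfkfb3*, *Rpia*, *Taldo1* and *Pygb* are filled, and most glycolytic intervals are several times wider than those of the pentose phosphate genes.

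*Pygb* encodes the brain form of glycogen phosphorylase, the enzyme that releases glucose 1-phosphate from glycogen. The gene spans chr2:150786735-150831758 (GRCm38, plus strand). Its level was 205, 215 and 224 CPM in AdLacZ 1, 2 and 3, and 359, 400.3 and 421 CPM in Ad*Lmo3* 1, 2 and 3. Every Ad*Lmo3* library lay far above every AdLacZ library, and the spread within each group was small. The level rose 1.83-fold, a log2 fold change of 0.88 with a standard error of 0.08 and an adjusted p of 0.0035. It was the largest change among the genes that passed, and it passed without any one of the 6 libraries, with log2 fold changes of 0.82 to 0.94.

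*Taldo1* and *Rpia* belong to the non-oxidative part of the pentose phosphate pathway. Transaldolase, the product of *Taldo1*, moves carbon units between sugar phosphates and so links the pathway back to glycolysis. Its gene lies at chr7:141392199-141402968 on the plus strand. The level was 239, 229 and 225 CPM in AdLacZ and 292, 312 and 295 CPM in Ad*Lmo3*. The lowest Ad*Lmo3* library stood well above the highest AdLacZ library. *Taldo1* rose 1.30-fold (log2 fold change 0.38, standard error 0.06, adjusted p 0.0196).

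Ribose 5-phosphate isomerase, the product of *Rpia*, makes the ribose phosphate used for nucleotides, and its gene lies at chr6:70765720-70792232 on the minus strand. It held 39.7, 38.5 and 39.1 CPM in AdLacZ and 53.5, 46.5 and 55.6 CPM in Ad*Lmo3*. The AdLacZ libraries were nearly level and the Ad*Lmo3* libraries all lay above them, Ad*Lmo3* 2 the least. *Rpia* rose 1.32-fold (log2 fold change 0.41, standard error 0.08, adjusted p 0.0278).

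*Pfkfb3* encodes a bifunctional kinase that makes fructose 2,6-bisphosphate, a strong activator of phosphofructokinase, and lies at chr2:11471433-11554077 on the minus strand. It was at 150.2, 142 and 128 CPM in AdLacZ and at 201, 179.7 and 183 CPM in Ad*Lmo3*. The groups did not overlap, and within them the order of the libraries was unlike that of the glycolytic enzymes described further on. *Pfkfb3* rose 1.34-fold (log2 fold change 0.42, standard error 0.08, adjusted p 0.0287). These calls were less firm than that of *Pygb*: *Taldo1* no longer passed without AdLacZ 2, without AdLacZ 3 or without Ad*Lmo3* 2, and *Rpia* and *Pfkfb3* each failed in 5 of the 6 omissions, passing only without Ad*Lmo3* 2 and without AdLacZ 1, respectively. Their log2 fold changes stayed between 0.35 and 0.48 in all of these fits.

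**Figure D2:**
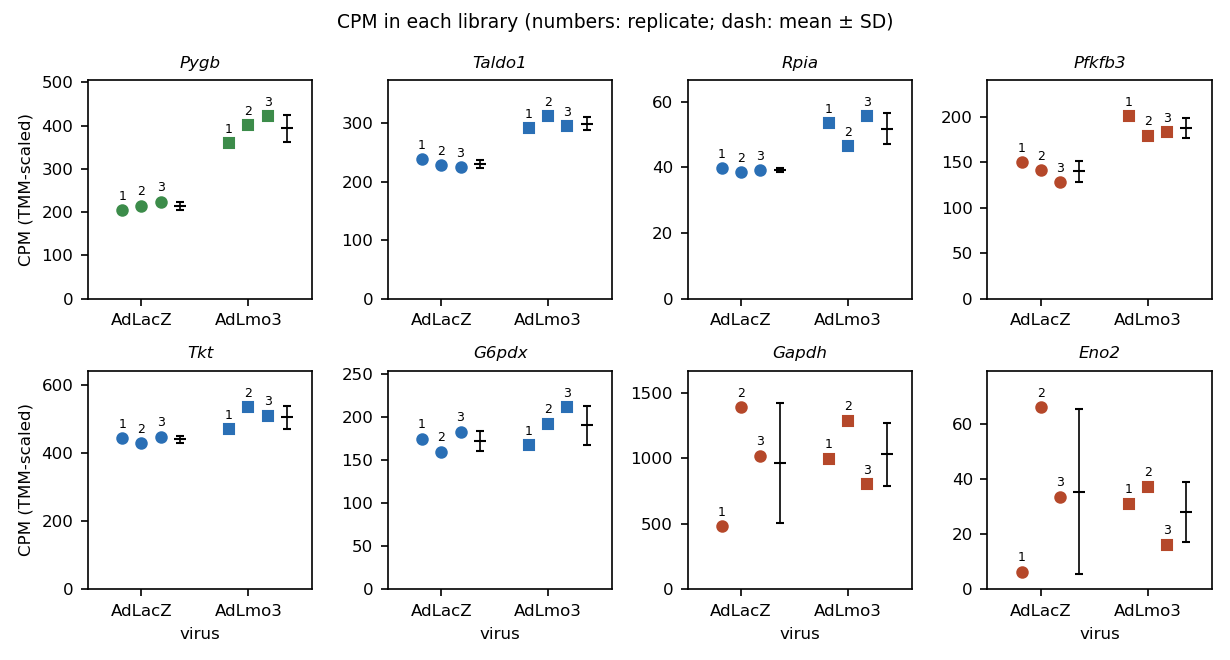
TMM-scaled CPM in each library (numbers give the replicate) for 8 of the genes, circles for AdLacZ and squares for Ad*Lmo3*, with the mean and SD of 3 libraries beside each group. *Pygb*, *Taldo1*, *Rpia*, *Pfkfb3* and *Tkt* have groups that do not overlap, those of *G6pdx* overlap, and *Gapdh* and *Eno2* vary more among the AdLacZ libraries than between the groups.

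The stretches just upstream of the start sites of these 4 genes are shown because they moved together between the viruses. The sequences are RefSeq promoters of GRCm38.p6, trimmed to end before both the RefSeq start and the start most used in GENCODE M21, and read 5′ to 3′ on the gene's strand. *Pfkfb3* lies at chr2:11502102-11502340 on the minus strand, *Rpia* at chr6:70792233-70792425 on the minus strand, *Taldo1* at chr7:141391910-141392159 on the plus strand and *Pygb* at chr2:150786546-150786734 on the plus strand. Capitals mark matches, on either strand, to CACGTG (an E-box), ACGTG and GCGTG (cores of hypoxia response elements).
Pfkfb3: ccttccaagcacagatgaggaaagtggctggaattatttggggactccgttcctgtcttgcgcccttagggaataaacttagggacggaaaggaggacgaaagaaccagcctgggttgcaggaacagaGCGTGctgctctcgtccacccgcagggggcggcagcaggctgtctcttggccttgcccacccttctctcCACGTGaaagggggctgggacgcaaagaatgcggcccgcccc
Rpia: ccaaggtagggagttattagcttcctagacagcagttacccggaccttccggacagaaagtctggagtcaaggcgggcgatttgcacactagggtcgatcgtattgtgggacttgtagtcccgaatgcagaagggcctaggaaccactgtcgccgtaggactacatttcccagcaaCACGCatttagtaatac
Taldo1: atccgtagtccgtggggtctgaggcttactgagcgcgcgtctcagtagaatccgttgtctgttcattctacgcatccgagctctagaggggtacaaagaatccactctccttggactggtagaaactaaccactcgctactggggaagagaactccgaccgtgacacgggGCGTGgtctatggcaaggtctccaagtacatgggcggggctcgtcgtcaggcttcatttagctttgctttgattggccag
Pygb: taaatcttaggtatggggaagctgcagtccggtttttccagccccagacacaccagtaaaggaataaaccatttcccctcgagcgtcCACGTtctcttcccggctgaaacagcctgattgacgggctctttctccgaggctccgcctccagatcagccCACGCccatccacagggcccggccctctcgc
The *Pfkfb3* start used here lies inside the span of the gene, which also has transcripts that begin farther upstream. Its E-box contains ACGTG on both strands, so the same bases count for both motifs. All 37 genes matched a RefSeq promoter by symbol. In the full 300-base windows, 250 bases before to 50 after the start, ACGTG was present in 20 of 37 genes (54.1%), beside 29.2% of 9679 tested symbols with a promoter. GCGTG was present in 24 of 37 (64.9%, beside 56.0%) and the E-box in 6 of 37 (16.2%, beside 11.8%). A pair of E-boxes with 5 bases between them was found in 0 of 32851 promoters, so that motif could not be compared. Paired AGGTCA with 1 base between (a PPAR element, DR1) was found in 0 of the 37 genes and the C/EBP palindrome TTGCGCAA in 1, *Rpia*, outside the stretch printed. These matches describe letters and not binding.

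The remaining pentose phosphate genes moved little. In the oxidative part none of 3 genes passed: *G6pdx*, the entry enzyme, had a log2 fold change of 0.14 (adjusted p 0.478), and *Pgls* and *Pgd*, the next steps, had -0.03 (adjusted p 0.891) and -0.04 (adjusted p 0.823). Their 95% intervals were narrow, from -0.20 to 0.15 for *Pgls* and from -0.19 to 0.12 for *Pgd*. *Tkt*, transketolase, which transfers carbon between sugar phosphates, held 445, 428 and 449 CPM in AdLacZ against 469, 535 and 509 CPM in Ad*Lmo3*. The groups did not overlap, but the log2 fold change of 0.20 did not pass (adjusted p 0.176). *Rpe*, ribulose 5-phosphate epimerase, had -0.18 (adjusted p 0.226), and 17.8% of its 75-base stretches also occur in transcripts of *Kansl1l*. Of the 4 non-oxidative genes 2 therefore passed and of the 3 oxidative genes 0, beside 4.28% of all tested genes in either direction. Among tested genes of at least 100 CPM the share was 8.59%. Lists of 3 and 4 genes are too short for a share to be read, and whether the parts differ was not tested.

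Among the glycogen genes, 1 of 9 passed (11.1%), beside 4.28% of all tested genes and 8.59% of those of at least 100 CPM. The liver form of the phosphorylase, *Pygl*, had a log2 fold change close to that of *Pygb*, 0.90, but a standard error of 0.40 and an adjusted p of 0.250. It was scarce, at 3.43, 3.61 and 1.00 CPM in AdLacZ and 6.10, 4.67 and 4.26 CPM in Ad*Lmo3*, from 34 to 226 counts per library. Every Ad*Lmo3* library was above every AdLacZ library, and AdLacZ 3 was the lowest by far. Per kilobase of exon, *Pygl* made up 1.46% ± 0.81 (SD, n = 3) of the summed *Pygb* and *Pygl* level in AdLacZ and 1.49% ± 0.41 in Ad*Lmo3*.

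On the synthesis side none of 6 genes passed. *Gyg*, glycogenin, which primes the glycogen particle, was the 1 gene of the 36 with every Ad*Lmo3* library below every AdLacZ library. It was at 165, 168 and 160.5 CPM in AdLacZ and 154, 125 and 123 CPM in Ad*Lmo3*. The AdLacZ libraries were level, and Ad*Lmo3* 1 stood nearer to them than to the other two. Its log2 fold change was -0.29 (adjusted p 0.131), and without Ad*Lmo3* 1 it passed the test at -0.40 (adjusted p 0.0268). *Ppp1r3c*, which tethers protein phosphatase 1 to glycogen, had 0.59 (adjusted p 0.221), with 140.0, 266 and 223 CPM in AdLacZ and 279, 409 and 259 CPM in Ad*Lmo3*. Its groups overlapped, since Ad*Lmo3* 3 lay below AdLacZ 2. *Gys1*, the synthase, *Gbe1*, the branching enzyme, *Ugp2*, which makes UDP-glucose, and *Pgm2*, listed here as a phosphoglucomutase, had log2 fold changes of 0.08 to 0.28 and adjusted p of 0.347 to 0.879. The symbols *Pgm1* and *Pgm2* changed places between mouse annotations and the tables hold both, so which locus the *Pgm2* row counts is uncertain. *Slc37a4*, the glucose 6-phosphate transporter of the endoplasmic reticulum, had 0.17 (adjusted p 0.571).

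Of the 20 tested glycolytic and lactate genes, *Pfkfb3* alone passed, and the other 19 did not. This share of 5.00% is near the 4.28% of all tested genes that passed in either direction. The steps from glucose to the trioses gave log2 fold changes from -0.21 for *Pfkp* to 0.40 for *Pfkl* among the genes that did not pass. *Pfkl* and *Pfkp*, the liver and platelet forms of phosphofructokinase, thus had opposite signs, with adjusted p of 0.400 and 0.718. The muscle form, *Pfkm*, had 0.22 (adjusted p 0.185), with 114, 131 and 123 CPM in AdLacZ and 135, 157 and 137 CPM in Ad*Lmo3*, and its groups did not overlap. The hexokinases that trap glucose in the cell, *Hk1* and *Hk2*, had -0.12 and 0.23 (adjusted p 0.732 and 0.741), and the isomerase *Gpi1* had 0.07 (adjusted p 0.922). *Aldoa*, the main aldolase, had 0.15 (adjusted p 0.653), and the brain form *Aldoc*, at 68 to 313 counts, had 0.11 (adjusted p 0.925).

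From the trioses to pyruvate none of 7 tested genes passed. *Tpi1*, triose phosphate isomerase, had a log2 fold change of 0.16 (adjusted p 0.704) and *Pkm*, pyruvate kinase, had 0.07 (adjusted p 0.913). *Gapdh* and *Pgk1*, which catalyse the oxidation of the triose and the first ATP-yielding step, had 0.10 and 0.09 (adjusted p 0.916 and 0.927), and the mutase *Pgam1* had -0.01 (adjusted p 0.988). The enolases *Eno2* and *Eno3* had -0.33 and -0.14 (adjusted p 0.832 and 0.514). *Gapdh*, *Pgk1*, *Pgam1* and *Pkm* share 76.1%, 67.5%, 40.6% and 21.5% of their 75-base stretches with transcripts of other genes, so how their reads were assigned is uncertain. *Eno1*, the main enolase of most tissues, shares 51.7% of its stretches, nearly all of them with its copy *Eno1b*. The *Eno1b* row held 32.7 to 75.5 CPM, so enolase reads may be split between these rows. The shared stretches cover only part of *Eno1*, and why its row held 0 to 2 counts was not tested. The level of *Eno1* cannot be read from these counts.

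Of the lactate genes none of 4 passed. *Ldha*, the muscle form of lactate dehydrogenase, had 0.32 (adjusted p 0.583) and the heart form *Ldhb* had -0.04 (adjusted p 0.835). *Slc16a1*, which encodes the monocarboxylate transporter MCT1, had -0.15 (adjusted p 0.619). *Slc16a3*, which encodes the lactate exporter MCT4, had -0.06 (adjusted p 0.964) and only 36 to 164 counts per library.

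Intervals of the glycolytic genes were wide because of the spread among infections of the same virus. *Gapdh* held 479, 1392 and 1020 CPM in AdLacZ 1, 2 and 3 and 997, 1288 and 803 CPM in Ad*Lmo3* 1, 2 and 3. *Pgk1* held 194, 616 and 457.7 CPM and 441, 561 and 346 CPM in the same libraries. *Ldha* held 671, 1611 and 1248 CPM and 1448, 1710 and 1243 CPM. In each of these genes AdLacZ 1 was the lowest library of all, AdLacZ 2 was more than 2-fold above it, and the Ad*Lmo3* libraries lay within the AdLacZ range except for *Ldha* in Ad*Lmo3* 2. *Eno2*, the neuronal enolase, had the largest range, with 6.32, 66.2 and 33.5 CPM in AdLacZ, a 10.5-fold range, and 31.0, 37.3 and 16.1 CPM in Ad*Lmo3*, a 2.31-fold range.

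The glycolytic genes moved through the libraries together. AdLacZ libraries stood in the order 1, 3, 2 from low to high in 18 of the 20 genes, against 20.6% of all tested genes, and Ad*Lmo3* libraries in the order 3, 1, 2 in 14 of 20, against 16.1%. Both orders were present in 14 of 20 glycolytic genes (70.0%), which were *Hk1*, *Gpi1*, *Pfkl*, *Pfkp*, *Aldoa*, *Aldoc*, *Tpi1*, *Gapdh*, *Pgk1*, *Pgam1*, *Eno2*, *Pkm*, *Ldha* and *Slc16a3*. Over all tested genes 5.12% had both. *Pfkfb3* and *Ldhb* had neither order. The order was seen in the data and then counted, and genes of one library share its RNA, so the counts describe these 6 libraries.

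**Figure D3:**
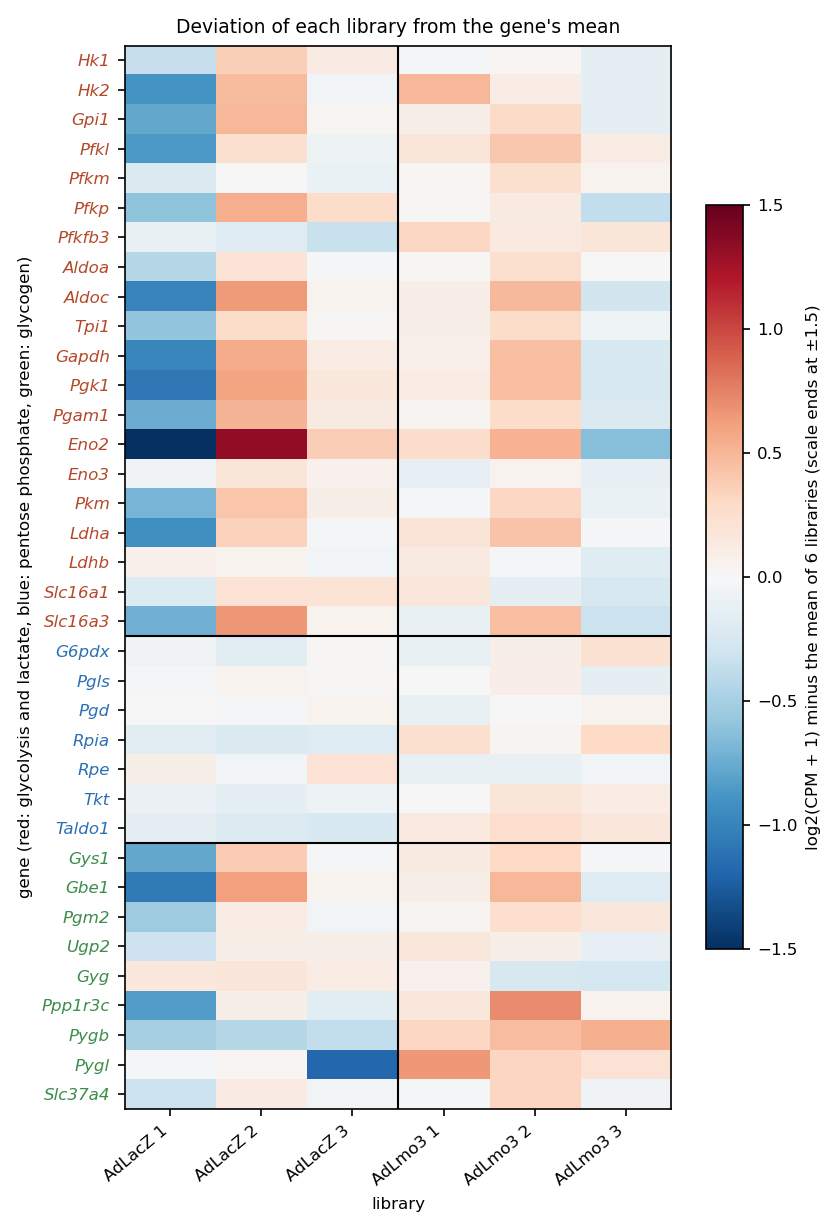
Deviation of each library from the gene's mean over 6 libraries, in log2(CPM + 1), for the 36 tested genes (rows, coloured by pathway) and the 6 libraries (columns). AdLacZ 1 is low and AdLacZ 2 and Ad*Lmo3* 2 are high in most glycolytic rows and in *Gys1*, *Gbe1* and *Ppp1r3c*, while the pentose phosphate rows stay pale.

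The pentose phosphate genes did not share that pattern. Both orders were found in 1 of 7 (*Pgls*), and 0 of 7 were lowest in AdLacZ 1, against 16 of 20 glycolytic genes (80.0%) and 17.3% of all tested genes. The median coefficient of variation within AdLacZ was 36.5% for the glycolytic genes, 2.54% for the pentose phosphate genes and 7.92% for all tested genes. Within Ad*Lmo3* it was 15.5%, 6.58% and 7.85%. The summed level of the 20 glycolytic genes was 7102, 13955 and 11209 CPM in AdLacZ and 11758, 13563 and 10502 CPM in Ad*Lmo3*, so AdLacZ 1 was far below the rest. The sum over the 7 pentose phosphate genes was 1318, 1267 and 1334 CPM in AdLacZ and 1371, 1500.1 and 1488 CPM in Ad*Lmo3*. Every Ad*Lmo3* sum of the pentose phosphate genes was above every AdLacZ sum, by a small margin. The summed CPM of all tested genes were apart in the same way, at 961999 to 981230 in AdLacZ and 1015430 to 1037360 in Ad*Lmo3*. The separation of the pentose phosphate sums therefore cannot be read as particular to this pathway. Nor did all 7 pentose phosphate genes rise: 4 had log2 fold changes above 0 and 3 below. The groups were apart for 3 of them, *Taldo1*, *Rpia* and *Tkt*.

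The glycogen genes were divided. *Gys1*, *Gbe1*, *Ppp1r3c* and *Slc37a4* followed both orders (4 of 9), and 7 of 9 were lowest in AdLacZ 1. *Gbe1* held 61.7, 199 and 135 CPM in AdLacZ and 139, 184 and 114 CPM in Ad*Lmo3*, a 3.23-fold and a 1.61-fold range. *Gys1* held 181, 402 and 301 CPM and 338, 379.6 and 303 CPM. Both synthesis genes thus ran with the glycolytic enzymes, while *Pygb* and *Gyg*, with ranges of 1.10-fold and 1.04-fold in AdLacZ, did not. The median coefficient of variation of the 9 genes was 22.2% in AdLacZ and 13.1% in Ad*Lmo3*.

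**Figure D4:**
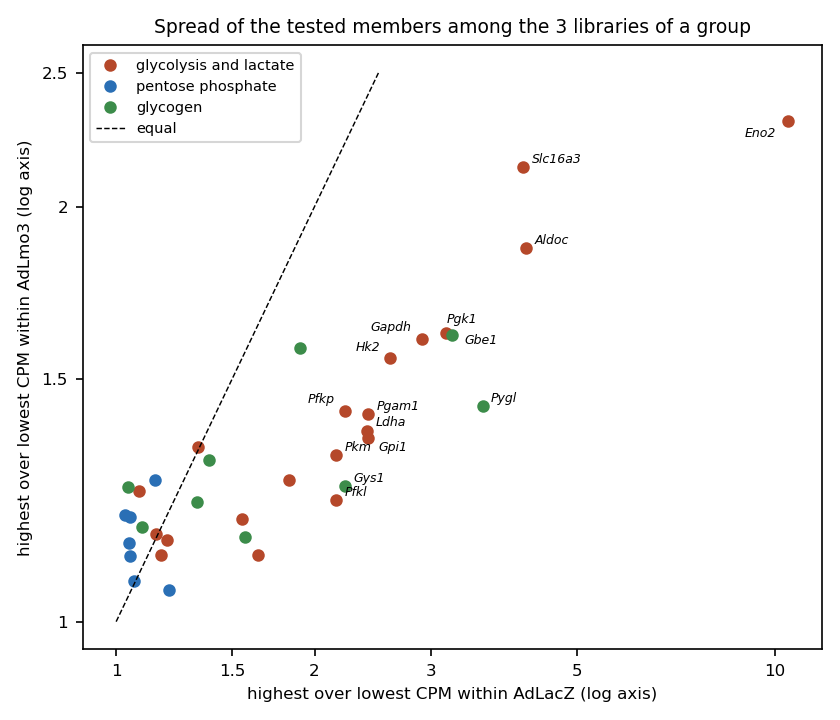
Ratio of the highest to the lowest CPM among the 3 AdLacZ libraries (x axis, log scale) and the 3 Ad*Lmo3* libraries (y axis, log scale) for the 36 tested genes, coloured by pathway, with the line of equal ratios. Genes over 2-fold within AdLacZ are named: 12 of 20 glycolytic, 3 of 9 glycogen and 0 of 7 pentose phosphate genes, and *Eno2* is the farthest out at 10.5-fold.

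Because of this spread, the pathway comparison depended on single libraries. The median log2 fold change was 0.08 for the 20 glycolytic genes, 0.14 for the 7 pentose phosphate genes and 0.21 for the 9 glycogen genes. Without AdLacZ 1 the glycolytic median was -0.20, with 4 genes above 0 and 16 below. Without AdLacZ 2 it was 0.38, with 17 above 0 and 3 below, and without Ad*Lmo3* 2 it was -0.08. The pentose phosphate median lay between 0.06 and 0.23 in the 6 omissions and the glycogen median between 0.05 and 0.50. The direction of the glycolytic genes as a group therefore cannot be given. No glycolytic gene other than *Pfkfb3* passed the test in any omission. The median standard error of a log2 fold change was 0.26 for the glycolytic genes and 0.07 for the pentose phosphate genes, beside 0.10 for all tested genes.

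Levels of different genes were compared per kilobase of exon (GENCODE M21, GRCm38). In AdLacZ *Aldoa* was the highest at 1707 ± 366 CPM per kb (SD, n = 3), followed by *Gapdh* at 644 ± 307, *Ldha* at 621 ± 250.3, *Tpi1* at 611 ± 177 and *Pkm* at 478 ± 172 CPM per kb. These last 4 lie within each other's spread, although *Pkm* was below *Gapdh*, *Ldha* and *Tpi1* in every library of both groups. *Taldo1*, at 169 ± 5.39 CPM per kb, was the highest of the pentose phosphate genes. Of the glycogen genes, *Pgm2* was at 135 ± 29.9 and *Ugp2* at 121 ± 18.7 CPM per kb, within each other's spread, so no highest can be named. The *Pgm2* value rests on the exon length of the GENCODE gene of that name, which may not be the locus counted. *Pygb* was at 54.9 ± 2.49 CPM per kb in AdLacZ, where *Gys1* was at 80.1 ± 30.1, and at 101 ± 8.03 in Ad*Lmo3*, where *Gys1* was at 92.5 ± 10.5. In both groups these genes lie within the spread of *Gys1*, so their order cannot be given. *Slc16a3* and *Pygl* were under 1 CPM per kb in AdLacZ, at 0.57 ± 0.36 and 0.80 ± 0.44.

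Among the isoenzyme families, only phosphofructokinase had shares that did not overlap between the viruses. *Pfkl* made up 54.5%, 60.2% and 58.4% of the summed phosphofructokinase level per kilobase in AdLacZ and 64.3%, 65.5% and 66.5% in Ad*Lmo3*. *Pfkp* made up 23.6%, 26.8% and 27.0% in AdLacZ and 20.8%, 19.6% and 17.1% in Ad*Lmo3*. Neither share overlapped between the viruses, and the average share of the liver form was 7.73 percentage points higher in Ad*Lmo3* while that of the platelet form changed by -6.62 points. The shares are parts of the same total, so these separations are not independent, and neither gene passed the test. For single genes, CPM groups were apart upward in 13.3% and downward in 13.2% of all tested genes. The share of *Pfkm* overlapped, at 16.5% ± 4.79 (SD, n = 3) and 15.4% ± 0.81, and 15.7% of the *Pfkp* stretches also occur in *Pitrm1*. With 3 libraries against 3, no exact permutation test of a single share can fall below 0.10, and none was run. Enolase shares were not computed, because *Eno1* could not be measured.

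**Figure D5:**
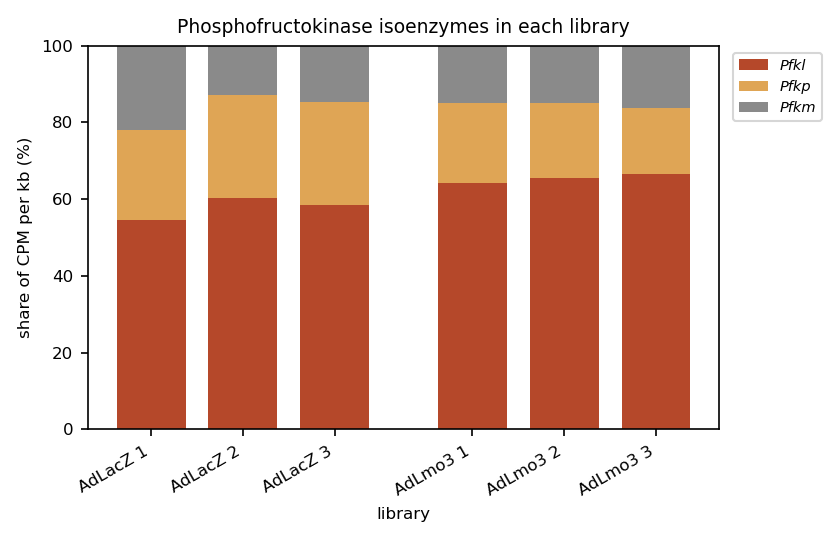
Share of *Pfkl*, *Pfkp* and *Pfkm* in their summed CPM per kb, as stacked bars in percent, for each of the 6 libraries. The *Pfkl* share is 54.5% to 60.2% in the AdLacZ libraries and 64.3% to 66.5% in the Ad*Lmo3* libraries.

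The other families gave shares that overlapped between the groups. *Hk2*, the insulin-responsive hexokinase, made up 69.5% ± 4.93 (SD, n = 3) of *Hk1* plus *Hk2* in AdLacZ and 75.0% ± 3.58 in Ad*Lmo3*. *Ldhb* made up 26.3%, 12.8% and 15.04% of lactate dehydrogenase in AdLacZ, where library 1 stood apart, and 14.8%, 11.5% and 14.0% in Ad*Lmo3*. *Slc16a1* was 98.4% ± 0.85 and 98.2% ± 0.81 of the paired transporters, and *Aldoc* was 0.09% of the aldolases in both groups.

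Other genes of these pathways, listed by function, are set beside the 4.28% of all tested genes that passed in either direction. Of 12 tested genes of glycolysis and gluconeogenesis outside the 37, 1 was higher (8.33%), *Galm*, a mutarotase of galactose and glucose (log2 fold change 0.45, adjusted p 0.0251). Of 4 genes of pyruvate and lactate transport 1 was higher (25.0%), *Mpc2*, a subunit of the mitochondrial pyruvate carrier (0.37, adjusted p 0.0424). *Mpc2* did not pass with upper quartile scaling (adjusted p 0.0543) or in 5 of the 6 omissions of a library. Of 7 genes of pentose and ribose handling 1 was higher (14.3%), *Shpk*, which phosphorylates sedoheptulose to a pentose phosphate intermediate (0.46, adjusted p 0.0130). *Shpk* held 27.1, 24.3 and 26.4 CPM in AdLacZ and 34.8, 36.8 and 35.2 CPM in Ad*Lmo3*, without overlap. Of 3 other cytosolic sources of NADPH, *Me1*, *Idh1* and *Mthfd1*, 0 passed, with log2 fold changes of 0.15 to 0.22.

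Of 21 further glycogen genes 1 was higher and 1 was lower (9.52%). *Phkg1*, a catalytic subunit of phosphorylase kinase, which activates glycogen phosphorylase, was higher (0.72, adjusted p 0.0441), a call that was lost in 5 of the 6 omissions of a library. It was scarce, at 189 to 381 counts per library and a mean of 5.69 CPM in AdLacZ. *Phkg2*, the other catalytic subunit, had a mean of 22.0 CPM in AdLacZ and went the other way. Its log2 fold change was -0.23 (adjusted p 0.144), with every Ad*Lmo3* library below every AdLacZ library. *Stbd1*, which binds glycogen and anchors it to membranes, fell by 1.33 on the log2 scale (adjusted p 0.0287), from 34.8, 59.2 and 51.2 CPM in AdLacZ to 22.9, 22.2 and 12.4 CPM in Ad*Lmo3*. All 3 Ad*Lmo3* libraries were below all 3 AdLacZ libraries, in a gene whose change was the largest of the glycogen genes here.

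Among 14 regulators that respond to carbohydrate or to low oxygen, 1 passed (7.14%), beside 4.28% of all tested genes in either direction. *Arrdc4*, an arrestin-domain gene that glucose-sensing transcription factors control, was at 9.78, 11.3 and 8.23 CPM in AdLacZ and at 15.1, 30.8 and 31.1 CPM in Ad*Lmo3*. Ad*Lmo3* 1 lay well below the other libraries of its group and still above AdLacZ, and the log2 fold change was 1.39 (adjusted p 0.0287). With limma voom it did not pass (adjusted p 0.0617), and it passed without Ad*Lmo3* 1 only among the 6 omissions. Each of the other 5 pathway genes also lost its call in some omissions, with adjusted p of up to 0.117 for *Galm*, 0.170 for *Mpc2*, 0.0711 for *Shpk*, 0.163 for *Phkg1* and 0.124 for *Stbd1*, always without AdLacZ 3 and without Ad*Lmo3* 2. Their directions did not change in these fits. *Mlxipl*, which encodes the carbohydrate response factor ChREBP, had 0.37 (adjusted p 0.321) at 3.72 to 6.96 CPM, and *Hif1a*, an oxygen-regulated factor, had 0.05 (adjusted p 0.817) at 189.7 to 229.9 CPM. *Hif1a* did not follow the library order of the glycolytic genes. *Rplp0*, a ribosomal protein gene that served as the reference in the study's Q-PCR, had 0.02 (adjusted p 0.924) and 538 to 628 CPM in the 6 libraries.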

How the data were processed

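Per the labels and methods, libraries were prepared with the NEBNext Ultra II RNA kit, and the authors mapped the reads with STAR (2.5.0b in the submitters' processing notes, which also name DESeq2 1.6.3) to the mm10 genome and deposited raw counts per gene symbol, 1 table per library. The counting program, its strand setting and annotation are not given in the sources used here. Reads of no gene (7.15 to 8.94% of all counts) or of several genes (0.476 to 0.543%) were left out.

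The main test of the deposited counts was edgeR's quasi-likelihood test (version 4.0.16, R 4.3.3), with TMM scaling, the filterByExpr filter, a threshold of 0.05 and no replicate block. CPM are TMM-scaled, errors are the SD of 3 libraries, and the standard error is the log2 fold change divided by the square root of F. With 3 counts as floor, the smallest detectable level was 0.08 to 0.11 CPM, for counting error only. Libraries of a group differed well beyond counting noise (chi-square per degree of freedom 24.0 to 64.0), so none was a copy. DESeq2 1.42.0 and limma 3.58.1 (voom), other scalings and filters, a replicate block and the omission of each library were alternatives. The fits were tested on simulated data. All 37 genes, the pathway genes that passed, *Mlxipl*, *Hif1a* and *Rplp0* were to be named, with every library's value for those the results turn on. Members and lists were chosen with earlier results of these data known. Exon lengths and 75-base stretches shared with other genes came from GENCODE M21, and promoters from RefSeq. No gene product sequences were used.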

Additional observations from a re-analysis of the deposited data

How the results depend on the processing

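The count of all tested genes that passed was 547, and it was 1110 with DESeq2, 498 with the replicate block and between 77 (without AdLacZ 3) and 501 (without Ad*Lmo3* 1) when 1 library was omitted. The 4 genes that passed were the same in all 7 alternatives that kept every library. Leaving out 1 library left 1 to 3 genes higher (3 without AdLacZ 1, 1 without AdLacZ 2 or 3, 2 without any one of the Ad*Lmo3* libraries) and 0 to 1 lower (*Gyg* without Ad*Lmo3* 1). Same-numbered libraries of the groups had correlations of 0.057, 0.24 and 0.26 over genes, so the numbers were not taken as a pairing. The replicate block kept the same 4 genes but turned *Pgam1* to 0.061 and *Slc16a3* to 0.035. It ended 2 other calls, *Mpc2* (edgeR adjusted p 0.0572) and *Phkg1* (0.0562), and upper quartile scaling also ended that of *Mpc2* (0.0543). limma voom turned *Pgam1* to 0.067, *Eno2* to 0.16 and *Slc16a3* to 0.095.

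Over the 6 omissions the medians ranged from -0.20 to 0.38 for glycolysis, 0.058 to 0.23 for the pentose phosphate pathway and 0.053 to 0.50 for glycogen. Single genes that did not pass changed sign in at least 1 omission, with log2 fold changes of -0.29 to 0.051 for *Hk1*, -0.066 to 0.59 for *Hk2*, -0.20 to 0.40 for *Gpi1*, -0.48 to 0.039 for *Pfkp*, -0.0051 to 0.30 for *Aldoa*, -0.27 to 0.64 for *Aldoc*, -0.045 to 0.37 for *Tpi1*, -0.23 to 0.46 for *Gapdh*, -0.26 to 0.46 for *Pgk1*, -0.29 to 0.29 for *Pgam1*, -0.82 to 0.51 for *Eno2*, -0.18 to 0.33 for *Pkm*, -0.12 to 0.030 for *Ldhb*, -0.45 to 0.51 for *Slc16a3*, -0.087 to 0.038 for *Pgls*, -0.071 to 0.012 for *Pgd*, -0.047 to 0.50 for *Gys1*, -0.20 to 0.56 for *Gbe1*, -0.044 to 0.16 for *Ugp2*, -0.031 to 0.11 for *Hif1a* and -0.021 to 0.083 for *Rplp0*. The cause of these shifts was not tested. With 3 libraries per group, the spread among infections limits what can be said of the glycolytic genes, and the part of depth in the spread of *Aldoc*, *Slc16a3* and *Pygl*, at 34 to 313 counts per library, was not tested.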

Other observations

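Genes known to be induced by low oxygen followed the library order of the glycolytic enzymes. The list of 16 such genes was drawn up after the libraries had been compared, so it gives no independent support. All 16 had AdLacZ libraries in the order 1, 3, 2, and 14 of 16 (87.5%) also had Ad*Lmo3* libraries in the order 3, 1, 2, beside 5.12% of all tested genes. *Egln3*, an oxygen-sensing prolyl hydroxylase, held 147, 618 and 447 CPM in AdLacZ and 558, 688 and 381 CPM in Ad*Lmo3*. *Pdk1*, a kinase that holds back pyruvate oxidation, held 149, 409 and 319 CPM and 352, 417 and 282 CPM. *Slc2a1*, the basal glucose transporter, held 95.7, 299.7 and 197 CPM and 191, 193 and 136 CPM, while *Slc2a4*, the insulin-regulated transporter, held 335, 371 and 386 CPM and 361, 424 and 369 CPM. The cause of the spread among infections was not tested.

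*Txnip*, a thioredoxin-binding relative of *Arrdc4* that also responds to glucose, was named after its values were seen. It held 253, 265 and 242 CPM in AdLacZ and 209, 811 and 737 CPM in Ad*Lmo3*. Ad*Lmo3* 1 was the lowest of the 6 libraries and the other two were far above AdLacZ, and the log2 fold change of 1.21 did not pass (edgeR adjusted p 0.148).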
